A study of Mus musculus with 4 samples.

Results

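The proteasome genes described here were the 51 genes whose symbol began with Psm, a letter from a to g and a number, out of 22186 genes in the deposited table. Of these, 49 had a mean of at least 1 TPM (a measure that scales each gene by its length and each library by its total) and were tested. By role, 14 encode the constitutive 20S core, 17 the 19S regulatory particle, 5 the immune subunits and activators Psmb8, Psmb9, Psmb10, Psme1 and Psme2, and 10 the assembly chaperones, other activators and inhibitor. The other 5 were Psma8 and Psmb11, core subunits of testis and thymus, Psme2b, a near-identical relative of Psme2, and Psmc3ip and Psme3ip1, whose products bind or are named for a subunit but are not subunits. The cells were MC38, a mouse colon carcinoma line, stably carrying CXCL14 behind a tetracycline-inducible (TetOn) promoter. In 2 control cultures only the solvent PBS was added, in the other 2 doxycycline (DOX) at 1 µg/mL, and all were harvested after 72 h, and the series text calls each pair biological replicates. Every group carried the construct and no library received doxycycline without it, so a response to the drug and a response to CXCL14 cannot be told apart.

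The proteasome degrades ubiquitin-tagged proteins. Its barrel-shaped 20S core stacks outer alpha rings, which gate entry, on inner beta rings, where Psmb5, Psmb6 and Psmb7 cut peptides, and the 19S regulatory particle binds ubiquitin chains, unfolds the substrate with a ring of ATPases and feeds it in. In cells exposed to interferon gamma, Psmb8, Psmb9 and Psmb10 replace those catalytic subunits during assembly to form the immunoproteasome, and the activator PA28, made of Psme1 and Psme2, is induced alongside, which alters the peptides offered to MHC class I. When proteasome activity falls short, the transcription factor NRF1 (gene Nfe2l1) raises the subunit genes together through antioxidant response elements.

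Upstream sequences of genes with contrasting behaviour are shown first: a constitutive catalytic subunit that rose (Psmb5), its immune replacement that did not pass the test (Psmb8), and Psmb9, whose neighbour Tap1 encodes a chain of the peptide transporter. Each is the 250 bases before the annotated start, written 5′ to 3′ along the gene, from RefSeq on GRCm38.p6, a build earlier than the mm39 named for these data. Capitals mark matches to TGACNNNGC, a core of the antioxidant response element, to GAAA and GAAA with 2 bases between, a core of the interferon-stimulated response element, or to TTCNNNGAA, a core of the gamma-activated site, on either strand.
Psmb5, chr14:54617996-54618245, minus strand: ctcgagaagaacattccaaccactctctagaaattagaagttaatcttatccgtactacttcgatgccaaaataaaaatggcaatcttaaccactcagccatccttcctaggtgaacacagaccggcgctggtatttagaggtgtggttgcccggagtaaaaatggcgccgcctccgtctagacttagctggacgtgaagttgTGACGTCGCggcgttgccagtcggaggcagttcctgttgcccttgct
Psmb8, chr17:34197945-34198194, plus strand: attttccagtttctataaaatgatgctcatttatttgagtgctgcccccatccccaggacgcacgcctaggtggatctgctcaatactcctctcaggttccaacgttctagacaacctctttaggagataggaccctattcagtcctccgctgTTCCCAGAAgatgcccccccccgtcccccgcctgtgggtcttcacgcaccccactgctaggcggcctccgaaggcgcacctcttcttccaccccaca
Psmb9, chr17:34187331-34187580, minus strand: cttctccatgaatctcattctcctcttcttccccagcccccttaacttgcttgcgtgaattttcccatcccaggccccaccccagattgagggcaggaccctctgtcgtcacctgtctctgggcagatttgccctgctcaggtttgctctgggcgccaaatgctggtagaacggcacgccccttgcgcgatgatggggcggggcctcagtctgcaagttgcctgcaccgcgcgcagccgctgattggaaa

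In that window Psmb5 held a TGACNNNGC match 47 to 39 bases before the start, Psmb8 held a TTCNNNGAA match 97 to 89 bases before it, and Psmb9 held none of these letters. Of 43 proteasome genes with a sequence in the RefSeq table, 5 matched TGACNNNGC (Psmb5, Psmb6, Psmc6, Psmd9 and Psmd12), or 11.6%, beside 10.2% of 32851 upstream windows of all genes. The pair of GAAA was found in 3 of 43 (Psmb3, Psmd4 and Psmd9), 6.98% beside 2.98% of all windows. TTCNNNGAA was found in 2 of 43 (Psmb8 and Psmg1), 4.65% beside 7.02% of all windows. The 43 genes had 47 windows, and a gene counted once if any of its windows matched, whereas the share of all windows counts each window. A match is a description of letters and not of a binding site. Of the genes with a TGACNNNGC match, Psmb5, Psmb6, Psmc6 and Psmd9 rose and Psmd12 did not pass. Psmc2, with the largest rise of the proteasome genes tested, held no such match. Whether matches go with changes was not tested.

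The libraries had 14330 to 14678 genes above 0, and their depth is unknown because the files hold no read counts. Cxcl14 stood at 27.3 and 29.2 TPM with PBS against 385 and 391 TPM with DOX, in the direction of its labels. All 12 colon epithelial markers were below 1 TPM in every library, including Cdh1, Krt19, Cdx1 and Cdx2 at 0. Leukocytes carry immunoproteasomes without induction, and 13 of 15 leukocyte markers were below 1 TPM in every library, with Laptm5, Cd3e and C1qa at 0. The summed level of the 15 was 4.09 to 5.44 TPM in the controls and 2.81 to 4.27 TPM after doxycycline. Most of that sum was Lyz2, at 3.76 and 2.99 TPM with PBS against 2.65 and 3.78 TPM with DOX. The other exception, Coro1a, was at 1.16 and 0.490 TPM with PBS against 0 and 0.216 TPM with DOX. Of 8 fibroblast markers, 3 (Col1a2, Lum and Fap) were below 1 TPM in every library and 5 were tested. Of those 5, 4 fell, beside 35.4% of all genes tested, and Col1a1 did not pass at 2.02 to 3.39 TPM. The sum of all 8 went from 4053 and 4205 TPM with PBS to 909 and 823 TPM with DOX. Most of that sum was Dcn, at 3075 and 3259 TPM with PBS against 485 and 464 TPM with DOX. Pdgfra stood at 350 and 358 TPM with PBS against 34.1 and 26.8 TPM with DOX. The part of these markers in the results below was not tested. In bulk RNA, fewer cells of a type and less RNA per cell cannot be told apart.

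Summed over the 46 proteasome genes of the 4 named roles, the level was 10312 and 10063 TPM with PBS against 12673 and 12633 TPM with DOX. Both doxycycline libraries lay above both controls, by 1.24 times in mean. The smallest two-sided p of an exact permutation test on 4 libraries is 0.33, which this sum reached, so single genes rest on limma, a linear model that shares the spread across genes. At a limma adjusted p under 0.05, 31 of the 46 rose, beside 29.0% of the 11359 genes tested. The same test called 4 of the 46 lower (Psma6, Psme1, Psmd10 and Psme4), beside 35.4% of all genes tested, and in either direction 64.4% of all genes were called. The median log2 fold change of the 46 was 0.26, beside -0.04 over all genes tested. By order alone, both doxycycline libraries exceeded both controls for 37 of the 46, against 37.7% of all genes, and lay below both controls for 5, against 45.0%. The rises were small in size, mostly under 1.5-fold, and p-values rest on the spread between 2 cultures a group. Without a filter on low values, 20 of the 46 were called higher and 1 lower, beside 2139 and 2767 of all 22186 genes.

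In the 20S core, the beta ring rose throughout and the alpha ring in part. All 7 constitutive beta genes rose, beside 29.0% of all genes tested, with log2 fold changes from 0.31 to 0.65 and a median of 0.43. Psmb5, which carries the chymotrypsin-like activity, stood at 272 and 282 TPM with PBS against 424 and 446 TPM with DOX. The groups did not overlap, and the log2 fold change was 0.65 with SE 0.06 (limma adjusted p = 1.5e-05). Psmb6, the caspase-like subunit, was the lowest of the ring at 156 and 171 TPM with PBS against 212 and 193 TPM with DOX (log2 fold change 0.31, limma adjusted p = 0.0044). Psmb7, the trypsin-like subunit, went from 308 and 323 TPM to 420 and 391 TPM (log2 fold change 0.36, limma adjusted p = 9.3e-04). Of the non-catalytic beta genes, Psmb3 rose from 347 ± 8.88 to 511 ± 8.98 TPM (SD, n = 2), Psmb2 from 280 ± 6.01 to 404 ± 19.1 TPM, Psmb4 from 364 ± 5.87 to 490 ± 8.25 TPM and Psmb1 from 378 ± 18.7 to 495 ± 26.7 TPM.

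Of the 7 alpha ring genes, 3 rose and 1 fell, with a median log2 fold change of 0.12. That is 4 of 7 called, near the 64.4% of all genes tested that were called in either direction. Psma7 rose from 320 and 321 TPM to 430 and 414 TPM (limma adjusted p = 3.0e-04), a log2 fold change of 0.39 with SE 0.06. Psma4 rose from 290 ± 1.16 to 339 ± 10.6 TPM, and Psma1 from 227 ± 0.0867 to 254 ± 9.45 TPM (limma adjusted p = 0.037). Psma6 was the one that fell, from 407 and 395 TPM to 370 and 342 TPM (log2 fold change -0.17, limma adjusted p = 0.038). Psma2 and Psma5 had higher values in both doxycycline libraries without passing (limma adjusted p = 0.10 and 0.32). Psma3 was the least repeatable, at 324 and 269 TPM with PBS against 377 and 257 TPM with DOX, so that the spread inside each group exceeded the difference. The calls of Psma1 and Psma6 were each lost under 7 of 14 other settings, including leaving out control replicate 1, control replicate 2 or DOX replicate 2, with adjusted p up to 0.26 and 0.31. Without DOX replicate 1 the call of Psma1 was lost too. Without DOX replicate 2 the call of Psma4 was lost (adjusted p = 0.080) and Psma3 passed as higher (adjusted p = 0.0089). Under median-of-ratios scaling 4 alpha genes rose and the fall of Psma6 was not called. Without a filter on low values, 6 of the 14 core genes were called instead of 11, among them 4 of the 7 beta genes. Over all genes that setting called 4906 of 22186, instead of 7312 of 11359.

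The rings were also compared inside each library. This uses the same values as the gene changes above and is not separate support. The mean log2(TPM + 1) of the beta ring minus that of the alpha ring was -0.02 and 0.06 with PBS against 0.30 and 0.42 with DOX. The groups did not overlap, and the difference of 0.34 compares with a pooled SD within groups of 0.07 (exact permutation p = 0.33, two-sided, the smallest the design allows). In summed level, the rings were near each other in the controls, at 2112 and 2023 TPM for alpha and 2123 and 2125 TPM for beta. After doxycycline the alpha ring stood at 2343 and 2169 TPM and the beta ring at 2926 and 2963 TPM. The log2 ratio of the alpha sum was 0.13, and it was 0.07 without DOX replicate 1 and 0.18 without DOX replicate 2. Near-identical pseudogene transcripts exist in GENCODE M21 for Psma3, Psma4, Psma5, Psmb3 and Psmb5, so the values of those genes are less certain. Without them 7 of 9 core genes rose and 1 fell.

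**Figure D1:**
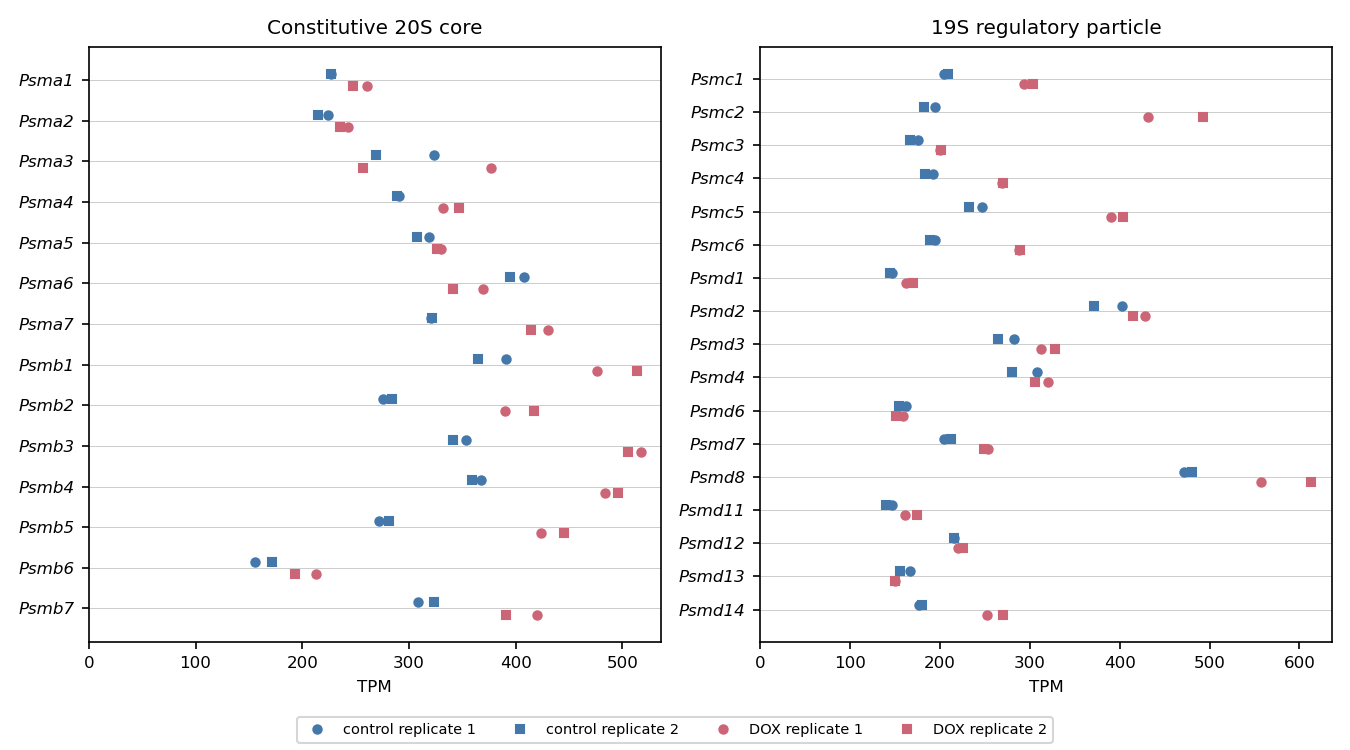
Levels in TPM (horizontal axis) of the constitutive 20S core genes (left) and the 19S regulatory particle genes (right). Each point is 1 library, blue for control and red for doxycycline, with circles for replicate 1 and squares for replicate 2. The red points of all 7 beta genes and all 6 ATPase genes lie to the right of the blue, whereas Psma3 overlaps and Psma6 lies to the left.

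In the 19S regulatory particle, the ATPase ring rose throughout. All 6 ATPase genes rose, beside 29.0% of all genes tested, with log2 fold changes from 0.23 to 1.29 and a median of 0.56. Psmc2, which encodes the ATPase Rpt1, stood at 195 and 182 TPM with PBS against 432 and 493 TPM with DOX, 2.46 times higher in mean. Its log2 fold change of 1.29 (SE 0.08, limma adjusted p = 8.6e-07) was the largest among the 49 proteasome genes tested. Psmc5 rose from 239 ± 10.5 to 397 ± 9.26 TPM, Psmc6 from 192 ± 4.29 to 288 ± 0.847 TPM, Psmc1 from 207 ± 3.21 to 299 ± 7.05 TPM and Psmc4 from 188 ± 6.19 to 269 ± 0.994 TPM (SD, n = 2). Psmc3 had the smallest rise of the ring, from 171 ± 6.61 to 201 ± 1.01 TPM (log2 fold change 0.23, limma adjusted p = 0.0075). In the controls the 6 ATPase genes spanned 171 to 239 TPM, and after doxycycline 201 to 462 TPM.

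Of the 11 non-ATPase subunit genes with a Psm symbol, 6 rose and the other 5 did not pass, with a median log2 fold change of 0.19. Adrm1 and Sem1, non-ATPase subunits without that symbol, were counted with the proteasome-bound proteins below. Neither passed (log2 fold change -0.01 and -0.11, limma adjusted p = 0.89 and 0.15). Over all genes tested, 29.0% rose and 64.4% were called in either direction. Psmd14, the deubiquitinase that removes ubiquitin chains from substrates, stood at 176 and 180 TPM with PBS against 252 and 271 TPM with DOX (log2 fold change 0.55, SE 0.06, limma adjusted p = 5.1e-05). Psmd8 rose from 476 ± 6.13 to 585 ± 39.5 TPM, and Psmd7, the partner of Psmd14, from 208 ± 5.05 to 251 ± 2.90 TPM. Of the scaffold subunits of the base, Psmd1 rose from 145 ± 1.64 to 166 ± 5.28 TPM (limma adjusted p = 0.017). Psmd2 was at 403 and 372 TPM with PBS against 429 and 415 TPM with DOX (limma adjusted p = 0.12). Both were higher in both doxycycline libraries, and Psmd2 passed under median-of-ratios scaling and without control replicate 1. Psmd4, a ubiquitin receptor, was at 308 and 280 TPM with PBS against 320 and 306 TPM with DOX, with overlapping groups (limma adjusted p = 0.26). Psmd3 and Psmd11 rose (log2 fold change 0.22 for both), and Psmd6, Psmd12 and Psmd13 lay between -0.10 and 0.05. Without DOX replicate 2, only Psmd7 and Psmd14 of the 11 were called, Psmd11 was also lost without control replicate 2, and quantile normalization gave 4 higher and 1 lower (Psmd13). Without a filter on low values, 7 of the 17 regulatory particle genes were called instead of 12, beside 4906 of all 22186 genes. Psmd2 and Psmd11 have near-identical pseudogene transcripts, and without them 11 of 15 rose.

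Inside each library, the mean log2(TPM + 1) of the ATPases minus that of the non-ATPases was -0.17 and -0.18 with PBS against 0.29 and 0.31 with DOX. That difference of 0.47 compares with a pooled SD within groups of 0.01 (exact permutation p = 0.33, two-sided). The difference comes from the same values as the gene changes above and is not separate support. The mean of the whole regulatory particle minus that of the core was -0.44 and -0.47 with PBS against -0.46 and -0.37 with DOX, and those values overlapped.

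**Figure D2:**
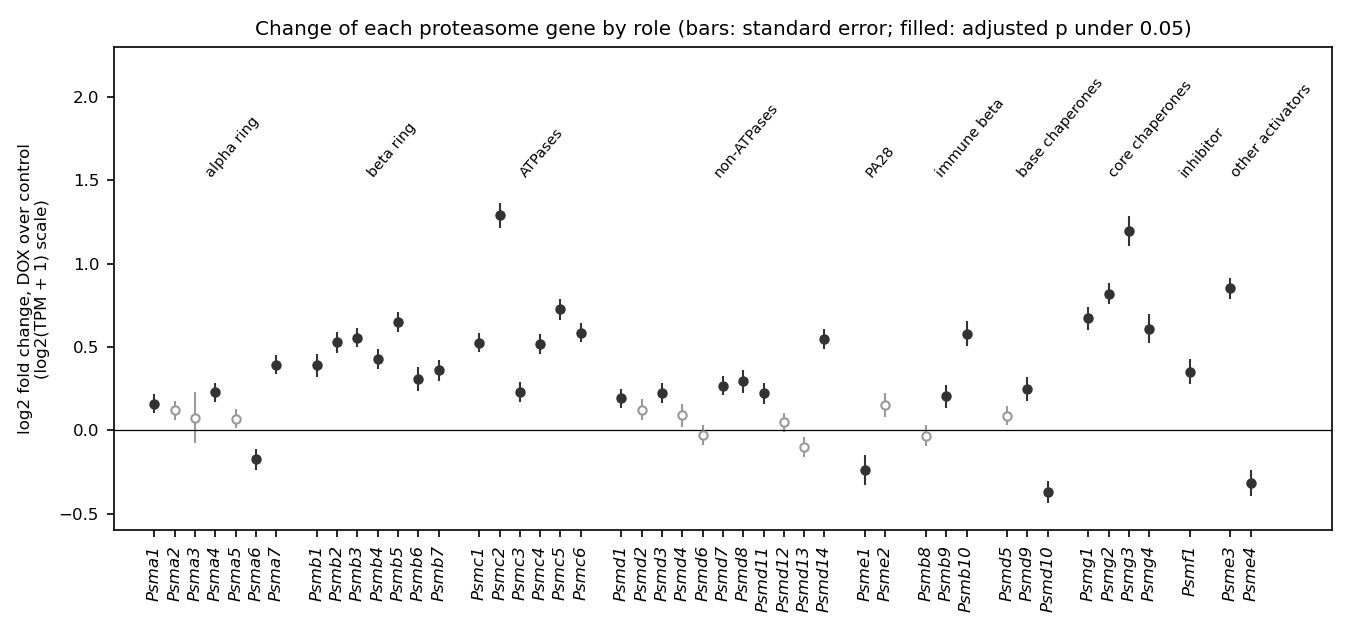
Log2 fold change of doxycycline over control on the log2(TPM + 1) scale (vertical axis) for the 46 proteasome genes of the named roles (horizontal axis, grouped by role). Bars are the standard error from limma, and filled points passed at an adjusted p under 0.05. The beta ring, the ATPases and the core chaperones lie above 0 throughout, whereas the alpha ring, the non-ATPases and the immune genes lie on both sides of it.

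The immune genes were already expressed in the controls. Of the 5, 2 rose (Psmb9 and Psmb10) and 1 fell (Psme1), and the other 2 did not pass. With 64.4% of all genes tested called in either direction, 3 of 5 is near the background. Their summed level was 1462 and 1428 TPM with PBS against 1561 and 1428 TPM with DOX, 1.03 times in mean (exact permutation p = 0.67, two-sided). The log2 ratio of the sum was 0.05, and it was -0.02 without DOX replicate 1, 0.11 without DOX replicate 2 and -0.024 under quantile normalization. Psmb8, the replacement for Psmb5, stood at 377 and 391 TPM with PBS against 389 and 363 TPM with DOX. Those groups overlapped, and the log2 fold change was -0.03 with SE 0.06 (limma adjusted p = 0.69). Psmb10, the replacement for Psmb7, rose from 82.9 and 75.2 TPM to 125 and 112 TPM (0.58 ± 0.08 as log2 fold change ± SE, limma adjusted p = 1.3e-04). Psmb9, the replacement for Psmb6, was the lowest of the 5 at 43.6 and 46.6 TPM with PBS against 52.1 and 51.9 TPM with DOX (log2 fold change 0.20, SE 0.07, limma adjusted p = 0.026).

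Of the PA28 genes, Psme1 passed the test and Psme2 did not. Psme1 was at 351 and 364 TPM with PBS against 336 and 274 TPM with DOX, with both doxycycline libraries below both controls. Its log2 fold change was -0.24 with SE 0.09 (limma adjusted p = 0.045), and that call did not hold under 6 of 14 other settings, including leaving out control replicate 1, control replicate 2 or DOX replicate 2, with adjusted p up to 0.44. Psme2 was at 608 and 551 TPM with PBS against 659 and 627 TPM with DOX (log2 fold change 0.15, limma adjusted p = 0.086). It passed under median-of-ratios scaling and without control replicate 1. Psme2b, whose transcript was 99.4% identical to that of Psme2 over 794 bases, stood at 29.6 and 36.3 TPM with PBS against 38.1 and 38.0 TPM with DOX (limma adjusted p = 0.086). Reads could be split between the Psme2 genes, so the values of both are uncertain. The call of Psmb9 was lost without control replicate 1, DOX replicate 1 or DOX replicate 2 (adjusted p up to 0.10). Without DOX replicate 2, Psmb10 was the only one of the 5 that was called. Under median-of-ratios scaling 3 rose and the fall of Psme1 was not called. Without a filter on low values limma called 0 of the 5, with 2 at an unadjusted p under 0.05, beside 4906 of all 22186 genes called.

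**Figure D3:**
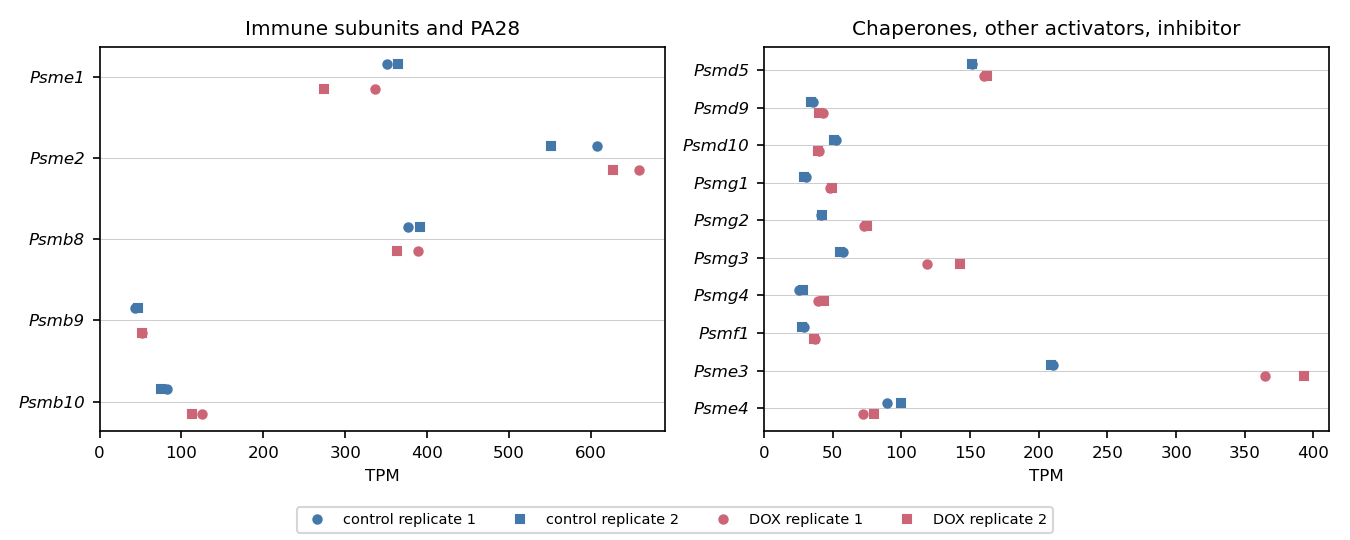
Levels in TPM (horizontal axes, on different ranges) of the immune genes (left) and of the assembly chaperones, other activators and inhibitor (right). Each point is 1 library, blue for control and red for doxycycline, with circles for replicate 1 and squares for replicate 2. Psmb8 overlaps between groups, Psmb10 and Psmb9 lie higher after doxycycline, and all 4 core chaperones (Psmg1 to Psmg4) lie higher.

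Each immune catalytic gene was also set against the subunit it replaces within each library. Psmb8 was 1.39 times the level of Psmb5 in both controls and 0.917 and 0.814 times after doxycycline. The log2 ratio fell by 0.68, beside a pooled SD within groups of 0.09. Psmb9 was 0.279 and 0.272 times the level of Psmb6 in the controls and 0.245 and 0.268 times after doxycycline. That is a log2 difference of -0.11 beside a pooled SD of 0.07, and it was -0.04 without DOX replicate 1, -0.17 without DOX replicate 2 and -0.012 under quantile normalization. Psmb10 was 0.269 and 0.233 times the level of Psmb7 in the controls and 0.297 and 0.287 times after doxycycline, a log2 difference of 0.22 beside a pooled SD of 0.11. That difference was 0.32 without control replicate 1 and 0.11 without control replicate 2. The positions were not tested against each other. In each of the 3 pairs the groups did not overlap, and each exact permutation p was 0.33 (two-sided), the smallest that 2 against 2 libraries allow. In the first pair, Psmb5 rose while Psmb8 differed by less than its SE. Psmb5 has a near-identical pseudogene transcript, so the ratio of that pair is less certain.

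**Figure D4:**
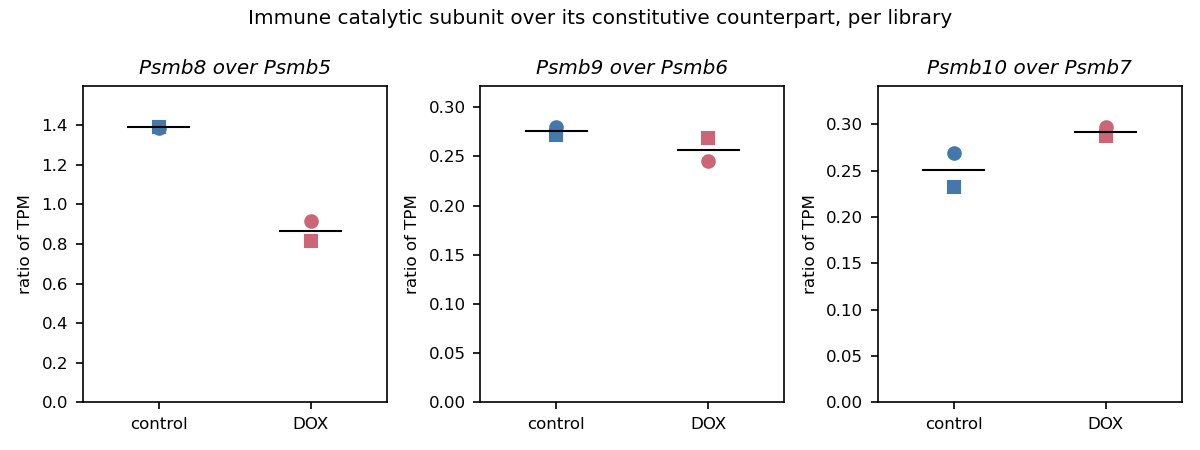
Ratio of the TPM of each immune catalytic gene to that of the constitutive gene it replaces (vertical axes, each starting at 0 and on its own range), in control and doxycycline libraries. Points are single libraries, circles for replicate 1 and squares for replicate 2, and lines are group means. Psmb8 over Psmb5 drops from 1.39 to 0.917 and 0.814, and the other pairs lie between 0.233 and 0.297 in all 4 libraries.

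After Psmc2, the largest rises among the 49 proteasome genes tested were those of Psmg3, Psme3 and Psmg2, followed by the ATPase gene Psmc5. All 4 core chaperone genes, which guide alpha ring formation and beta subunit addition, rose, beside 29.0% of all genes tested. Their median log2 fold change was 0.75. Psmg3 stood at 57.5 and 54.9 TPM with PBS against 118 and 143 TPM with DOX (log2 fold change 1.20, SE 0.09, limma adjusted p = 3.5e-06). Psmg2 rose from 41.5 ± 0.594 to 74.0 ± 1.63 TPM, Psmg1 from 30.1 ± 1.03 to 48.6 ± 1.09 TPM and Psmg4 from 26.7 ± 2.01 to 41.4 ± 3.04 TPM (SD, n = 2). Of the base chaperones, Psmd9 rose from 34.6 ± 0.915 to 41.4 ± 1.91 TPM, a call lost without control replicate 2, without DOX replicate 1 and without a filter on low values (adjusted p up to 0.11). Psmd5 was at 152 and 151 TPM with PBS against 160 and 162 TPM with DOX without passing (limma adjusted p = 0.19), and Psmd10, also known as gankyrin, fell from 52.0 and 50.7 TPM to 40.1 and 38.9 TPM (-0.37 ± 0.07 as log2 fold change ± SE, limma adjusted p = 9.9e-04).

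The activators outside PA28 alpha and beta went opposite ways. Psme3, which encodes the nuclear activator PA28 gamma, rose from 210 and 209 TPM to 365 and 393 TPM (0.85 ± 0.06 as log2 fold change ± SE, limma adjusted p = 3.2e-06). Psme4, which encodes the activator PA200, fell from 89.5 and 99.6 TPM to 72.1 and 79.8 TPM (-0.31 ± 0.08 as log2 fold change ± SE, limma adjusted p = 0.0059). That call was lost without control replicate 2 and without a filter on low values. Psmf1, which encodes the inhibitor PI31, rose from 29.3 and 27.5 TPM to 37.0 and 36.0 TPM (limma adjusted p = 0.0025). Psma8 was listed at 0 in all 4 libraries, and Psmb11 at 0 in all but DOX replicate 1, where it stood at 0.0682 TPM. Psmc3ip and Psme3ip1 had overlapping groups and log2 fold changes of -0.00492 and 0.00349.

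Among 12 genes for proteasome-bound proteins outside the Psm symbols, 7 rose and 2 fell (median log2 fold change 0.23, beside 29.0% higher and 35.4% lower over all genes tested), and quantile normalization gave 6 and 3. Pomp, the maturation factor of the core, rose from 352 and 343 TPM to 506 and 470 TPM (log2 fold change 0.49, limma adjusted p = 1.3e-04). Ubr4 and Ecpas, which bind the proteasome, rose (log2 fold change 0.43 and 0.37), and Zfand5, a zinc finger protein that stimulates it, fell from 184 and 127 TPM to 68.0 and 78.3 TPM (log2 fold change -1.06, limma adjusted p = 1.8e-04). Of 6 genes for NRF1, NRF2 and proteins that control NRF1, 2 rose and 3 fell. Over all genes tested, 29.0% were called higher and 35.4% lower. Nfe2l1 stood at 567 and 511 TPM with PBS against 885 and 910 TPM with DOX (log2 fold change 0.74, SE 0.07, limma adjusted p = 1.9e-05). Nfe2l2, which encodes the related factor NRF2, fell from 253 and 258 TPM to 169 and 165 TPM (log2 fold change -0.61, limma adjusted p = 1.5e-05). Sel1l, of the complex that extracts proteins from the ER, rose and Syvn1, its ligase partner, fell (log2 fold change 0.63 and -0.38).

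Ubiquitin genes, activating enzymes and shuttle factors were counted likewise: 10 of 17 rose and 1 fell (median log2 fold change 0.22, beside 29.0% higher and 35.4% lower over all genes tested). Sqstm1, which encodes the autophagy receptor p62, rose from 1513 and 1394 TPM to 2609 and 2680 TPM, and Faf1, a cofactor of the segregase VCP, from 62.6 and 59.4 TPM to 99.0 and 101 TPM. Ubqln2, a shuttle factor, fell from 56.4 and 59.2 TPM to 33.3 and 33.3 TPM (log2 fold change -0.78, limma adjusted p = 9.9e-06).

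In the interferon gamma route, 4 of 8 tested genes fell, beside 35.4% of all genes tested, and the other 4 did not pass, with 1 rising under median-of-ratios scaling (Nlrc5), and Ifng was listed at 0 in all 4 libraries. Ifngr1, Ifngr2 and Socs1 fell (log2 fold change -0.53, -0.61 and -0.52). Irf1, which binds the immune subunit promoters, was at 372 and 323 TPM with PBS against 316 and 293 TPM with DOX (limma adjusted p = 0.060), and Nlrc5, the class I transactivator, was at 57.7 and 53.6 TPM and then 60.4 and 63.8 TPM (limma adjusted p = 0.077). Irf1 passed as lower under 4 of 14 other settings (adjusted p 0.011 to 0.37 over all 14), and Nlrc5 as higher under 1 (0.018 to 0.35).

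Of 13 genes for peptide transport and class I loading, 4 rose and 7 fell (median log2 fold change -0.27), beside 29.0% called higher and 35.4% called lower over all genes tested. Without DOX replicate 1, 2 rose and 7 fell, and without DOX replicate 2, 2 rose and 6 fell. Tap1, the coding gene between Psmb9 and Psmb8 in the RefSeq order on chromosome 17, fell from 57.6 and 54.4 TPM to 47.3 and 45.0 TPM (-0.27 ± 0.07 as log2 fold change ± SE, limma adjusted p = 0.0066), a call lost without DOX replicate 2 (adjusted p = 0.054) and without a filter on low values (adjusted p = 0.063). Its neighbours in that order were Psmb9, which rose, and Psmb8, which did not pass. H2-T23, Lnpep and Pdia3 fell (log2 fold change -1.50, -0.77 and -0.56) and Tapbpl rose (0.85).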

How the data were processed

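RNA sequencing of 4 libraries (2 control, 2 doxycycline) was analysed, grouped by sample title. The authors deposited 2 tables keyed by gene symbol, which hold TPM and FPKM, per the file headers. The summed TPM of a library was between 3.08 and 3.14 times its summed FPKM. The submitters' processing notes name the build mm39. Aligner, quantifier and annotation: not given in the sources used here. Depth is unknown and no counting interval can be given.

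Genes whose mean over libraries reached 1 TPM were tested on log2(TPM + 1) in R 4.3.3 with limma 3.58.1 (eBayes with a mean-variance trend, no covariate, Benjamini-Hochberg over 11359 genes). Fold changes use that scale, and it understates changes of low genes. Python 3.11.15 and pandas 2.3.3 gave sums and ratios. The test was tried on simulated data. The blastn program 2.17.0 searched for near-identical copies in GENCODE M21 pseudogene transcripts (97% identity, at least 100 bases). Named genes are all proteasome genes, a set fixed by name (Nfe2l1, Nfe2l2, Pomp, Irf1, Nlrc5, Tap1 and Cxcl14 among them), and up to 4 called genes of each pathway list with the largest change. Some genes under this rule are not reported here. Other markers, Ifng, Adrm1 and Sem1 were named after their values were seen. Members and lists were chosen with earlier results of these data known. The 14 alternatives were pseudocounts of 0.1 and 0.5, an absent filter, a stricter one (mean 5 TPM), FPKM, median-of-ratios and quantile scaling, variance models with no trend or with robust estimates, the replicate number as a block, and leaving out each library. Counts without genes that have pseudogene copies were added after the data were seen.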

Additional observations from a re-analysis of the deposited data

How the results depend on the processing

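Of 35 proteasome genes called, 19 kept their call under all 14 alternatives, 16 lost it under at least 1, and none reversed in a call. Of 14 not called, 7 gained a call under at least 1. Without a filter on low values 4906 of 22186 genes were called, instead of 7312 of 11359 with it. The calls then dropped to 6 for the constitutive core, 7 for the regulatory particle and 0 for the immune genes (limma, 2 at an unadjusted p under 0.05). The same setting gave 4 higher and 0 lower of 12 proteasome-bound proteins, 7 and 1 of 17 ubiquitin genes, 0 and 3 of 13 peptide supply genes and 0 and 3 of 10 interferon gamma genes (limma). With a replicate left out, the calls ranged from 9 to 10 for the core, 8 to 13 for the regulatory particle, 1 to 2 for the immune genes, 7 to 9 for the chaperones, other activators and inhibitor, and 6249 to 6723 for all genes. A group left with 1 library is assumed to vary like the other group.

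The log2 difference of Psmb9 over Psmb6 was -0.012 under quantile normalization. The log2 ratio of summed TPM moved by more than the spread between replicates under scaling. Under median-of-ratios scaling it was 0.19 for the alpha ring, 0.54 for the beta ring, 0.76 for the ATPases, 0.26 for the non-ATPases and 0.12 for the immune genes. Under quantile normalization it was 0.038, 0.37, 0.61, 0.11 and -0.024 in the same order, beside 0.13, 0.47, 0.69, 0.19 and 0.05 as reported. In FPKM the beta ring stood at 0.49. With a replicate left out it ranged from 0.07 to 0.18 for the alpha ring, 0.46 to 0.48 for the beta ring, 0.66 to 0.73 for the ATPases, 0.17 to 0.21 for the non-ATPases and -0.02 to 0.11 for the immune genes. The log2 ratio differences then ranged from -0.77 to -0.60 for Psmb8 over Psmb5, -0.17 to -0.04 for Psmb9 over Psmb6 and 0.11 to 0.32 for Psmb10 over Psmb7. These sums were recomputed as alternatives chosen after seeing the data, and the cause of the shifts was not tested.

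The sample titles number the cultures alike in both groups, but the deviations of same-numbered libraries from their group means had a correlation of -0.0053 across genes, so the numbers were not taken to pair them. A fit with the replicate block called 7501 of all genes instead of 7312, and 11 core, 12 regulatory particle, 3 immune and 9 other proteasome genes, the counts reported above. Precision is limited by 2 libraries a group and by unknown depth.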
